A study of Mus musculus with 6 samples.

Results

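The choroid plexus epithelium markers are 9 genes, Ttr, Kl, Folr1, Clic6, Kcne2, Slc4a5, Otx2, Enpp2 and Aqp1, chosen because the epithelium of the choroid plexus expresses them strongly. A probe set was taken for a gene where the array annotation gave it that symbol alone, and the probe set with the highest mean over the 6 arrays stood for the gene. This gave values for 8 of the 9, among 18194 genes measured; no probe set with Enpp2 as its single symbol was among those used, so Enpp2 was not analysed here. The 6 arrays held subventricular zone RNA of adult male C57BL/6 mice. In the MCAO group (3 arrays) the middle cerebral artery had been occluded, a stroke model that damages striatum and lateral cortex, and the zone was taken 48 h later on the lesioned side. In the sham group (3 arrays) the mice had sham surgery and the same interval. The labels do not say whether each array held 1 mouse, so the p-values speak only for the spread among these 6 samples, and part of that spread may be technical.

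The choroid plexus is a frond of vascular tissue that hangs in each lateral ventricle, beside the wall that holds the subventricular zone. Its cuboidal epithelium secretes cerebrospinal fluid by moving ions and water from blood to ventricle, and it loads that fluid with carrier proteins and vitamins. The neighbouring ventricular wall is lined by ependymal cells, which have motile cilia and derive from the same neuroepithelium. Because the plexus lies loose against the wall, a dissection can take pieces of it along, and its markers then gauge how much came with the tissue on each array.

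The 9 marker genes are scattered over the genome, and among them Kcne2 and Clic6 alone are near neighbours. Both lie on mouse chromosome 16, with 5 protein-coding genes between them in the RefSeq table (Smim11, Fam243, Smim34, Kcne1 and Rcan1). Otx2 is the homeodomain factor that specifies this epithelium, and its homeodomain class binds the letters TAATCC. RefSeq start-site windows (GRCm38.p6, 250 bases before to 50 after the start) were matched for 5 of the 9 genes, Kl, Kcne2, Slc4a5, Otx2 and Aqp1, as 9 windows. TAATCC on either strand was present in 1 of these 9 windows, against 7.06% of all 32851 windows of 300 bases. The window with the match belongs to an internal start site of Otx2 itself and is shown for that reason (chr14:48665060-48665359, minus strand, GRCm38.p6), with the match, GGATTA on the strand printed, in capitals; it begins at position -211 from the start. A match of letters is a description of the sequence and was not tested as a binding site.
Otx2: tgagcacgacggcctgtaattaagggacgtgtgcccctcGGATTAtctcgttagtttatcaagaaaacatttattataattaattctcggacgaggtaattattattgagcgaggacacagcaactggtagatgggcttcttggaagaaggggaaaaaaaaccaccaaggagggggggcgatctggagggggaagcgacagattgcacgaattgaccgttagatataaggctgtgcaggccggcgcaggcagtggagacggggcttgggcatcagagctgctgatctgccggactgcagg

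All values below are log2 expression, quantile-normalised between arrays, and all differences are MCAO minus sham. Most plexus markers read near the low end of the scale on all 6 arrays, and the mean of the list differed by at most 0.16 log2 between arrays. Single markers ranged by 0.14 to 0.62 log2 in no common order, a spread that averaging narrows. On the 6 arrays the median of the deposited log2 values was 6.57 to 6.59 and the lowest value of any probe set was 4.80 to 5.01, so the scale has a high floor. To place the markers on it, 71 genes for odour, vomeronasal and trace amine receptors, which serve the nose, were read from the same arrays, a choice made after the marker values were seen. Their means over the 6 arrays had a median of 5.87, a 95th percentile of 6.34 and a maximum of 7.54. Of the 8 plexus markers, 5 (Kl, Kcne2, Slc4a5, Otx2 and Aqp1) had a mean below that 95th percentile, and 3 (Ttr, Folr1 and Clic6) had one above it, against 73% above it over all 18194 genes. Of these 3, Clic6 alone had a mean above the maximum. Probe sets differ in how brightly they read the same amount of RNA, so this places the readings near the low end of the scale and does not show that a transcript was absent. No array of pure plexus RNA is part of the study, so how far these probe sets would read above this level with plexus present was not tested.

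**Figure D1:**
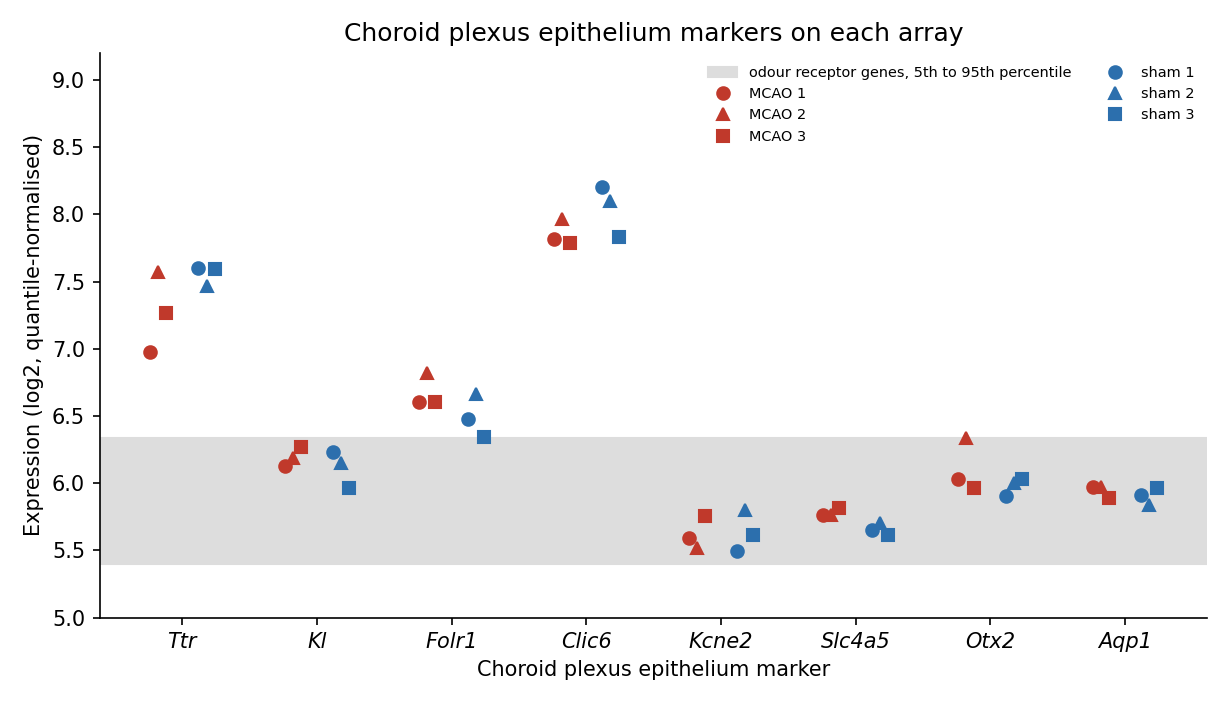
Log2 expression (vertical axis) of the 8 measured choroid plexus epithelium markers (horizontal axis) on each array, MCAO in red to the left of sham in blue, with the sample number given by the symbol. The grey band is the 5th to 95th percentile (5.40 to 6.34) of the means of 71 odour, vomeronasal and trace amine receptor genes; Kl, Kcne2, Slc4a5, Otx2 and Aqp1 sit within or at the edge of it on all 6 arrays.

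Ttr encodes transthyretin, the carrier of thyroid hormone and retinol that is the signature secreted protein of this epithelium. It read 6.98, 7.57 and 7.27 on MCAO arrays 1 to 3 and 7.60, 7.47 and 7.59 on sham arrays 1 to 3. The groups overlapped, since MCAO 2 lay above sham 2, and MCAO 1 was the lowest array. The means were 7.27 ± 0.30 in MCAO and 7.55 ± 0.07 in sham (SD, n = 3 each), a difference of -0.28 ± 0.14 log2 (SE) with a 95% interval of -0.61 to 0.05 that did not pass limma's test (adjusted p = 0.689). Within same-numbered samples the differences were -0.62, 0.10 and -0.33, so 2 of 3 pairs were lower in MCAO. The difference was -0.13 without MCAO 1 and -0.43 without MCAO 2. Ttr had the widest range of the 8 markers over the 6 arrays, 0.62 log2, which exceeded that of every other marker; 89.1% of all genes had a smaller SD over the arrays.

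Ttr was read by 4 probe sets, of which the one used has a name ending in _x_at and may bind related transcripts. The probe set whose name ends in _a_at ranged least, and read 6.86, 7.02 and 7.07 in MCAO and 7.08, 7.14 and 7.17 in sham. On this probe set every MCAO array lay below every sham array, by a difference of -0.15 ± 0.08 log2 (SE, n = 3 each; adjusted p = 0.828 over all probe sets with 1 symbol). The other _x_at probe set read 6.07, 6.63 and 6.10 in MCAO and 6.96, 6.50 and 6.71 in sham, a difference of -0.45 ± 0.17 (SE; adjusted p = 0.570). The _s_at probe set differed by -0.11 ± 0.15 (SE; adjusted p = 0.981). All 4 were lower in MCAO on average and none passed in limma's fit over probe sets, with or without the sample number as a block.

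Folr1 and Kl are receptors of the epithelium. Folr1, the folate receptor that carries folate into the cerebrospinal fluid, read 6.61, 6.82 and 6.60 in MCAO and 6.47, 6.66 and 6.34 in sham. It was higher in MCAO within each of the 3 same-numbered pairs, by 0.13, 0.16 and 0.26, although the groups overlapped because sham 2 lay above MCAO 1 and MCAO 3. The difference was 0.18 ± 0.11 log2 (SE, n = 3 each; 95% interval -0.06 to 0.43) and did not pass (adjusted p = 0.765). Kl encodes alpha-klotho, the co-receptor for the hormone FGF23. It read 6.13, 6.19 and 6.27 in MCAO and 6.23, 6.15 and 5.96 in sham, with sham 3 the lowest array and the groups overlapping. Its difference was 0.08 ± 0.09 (SE; 95% interval -0.13 to 0.29; adjusted p = 0.942), and its second probe set gave the same difference to 2 decimals. Without sham 3 the difference of Kl was 0.00316.

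Of the 4 channels and transporters of fluid secretion, 3 had means below the 95th percentile of the odour receptor group. Aqp1, the water channel of the ventricular face of the epithelium, read 5.97, 5.97 and 5.89 in MCAO and 5.91, 5.84 and 5.96 in sham. Its range of 0.14 log2 was the smallest of the 8 markers, and its difference was 0.04 ± 0.07 (SE; 95% interval -0.13 to 0.21; adjusted p = 0.970). Slc4a5, a sodium bicarbonate cotransporter, read 5.76, 5.76 and 5.81 in MCAO and 5.65, 5.70 and 5.61 in sham. It was the marker whose groups did not overlap, 1 of 8, against 13.8% of all genes, and the difference of 0.13 ± 0.07 (SE; 95% interval -0.03 to 0.29) did not pass (adjusted p = 0.733). Its mean was above that of 32.4% of the 71 odour receptor group genes.

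Kcne2, an accessory subunit of potassium channels at the ventricular face, read 5.59, 5.52 and 5.75 in MCAO and 5.50, 5.80 and 5.61 in sham. The arrays of both groups were interleaved, with a difference of -0.02 ± 0.10 (SE; 95% interval -0.26 to 0.22; adjusted p = 0.991) that turned to 0.03 without MCAO 2 and to 0.07 without sham 2. Its neighbour on the chromosome, Clic6, a member of the chloride intracellular channel family, read 7.82, 7.96 and 7.79 in MCAO and 8.21, 8.10 and 7.83 in sham. Clic6 lay above 63.8% to 73.4% of genes on the 6 arrays, and each same-numbered pair was lower in MCAO, by differences of -0.39, -0.14 and -0.04. The groups overlapped, and the difference of -0.19 ± 0.11 (SE; 95% interval -0.45 to 0.06) did not pass (adjusted p = 0.763). This probe set ends in _s_at and may bind related transcripts; the second one for Clic6 differed by -0.07 ± 0.07 (SE; adjusted p = 0.972).

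Otx2, the transcription factor, read 6.03, 6.34 and 5.97 in MCAO and 5.90, 6.00 and 6.03 in sham. MCAO 2 stood above the other 5 arrays, which lay within 5.90 to 6.03. The difference of 0.13 ± 0.11 log2 (SE, n = 3 each; 95% interval -0.12 to 0.38) did not pass (adjusted p = 0.886), and it was 0.02 without MCAO 2.

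Between MCAO and sham, 0 of the 8 markers passed the threshold of 0.05 on the adjusted p, and 0 had an unadjusted p under that value, by limma with Benjamini-Hochberg adjustment over all genes. Over all 18194 genes 206 passed, or 1.13%, of which 1.12% of genes rose and 0.0165% fell, and 8.77% had an unadjusted p under the threshold, so a count of 0 among 8 is close to the background. With the sample number as a block, 0 of 8 passed as well, against 6.12% of all genes (4.82% rose and 1.3% fell), with adjusted p between 0.169 for Folr1 and 0.953 for Kcne2. Of the 8, 5 were higher and 3 lower in MCAO, with a median difference of 0.06 log2, against a median of -0.01 and 47.7% of genes higher over all genes. Slc4a5 was the 1 marker whose difference stayed within 1.5 times its size whichever single array was left out. The 95% intervals of the 8 differences lay between -0.61 and 0.43 log2. A p that misses the threshold does not show that the groups had equal levels. These intervals cover only the 1 probe set used per gene and are not adjusted for the number of genes. For the other _x_at probe set of Ttr the 95% interval, likewise not adjusted, was -0.86 to -0.05 and excluded 0.

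**Figure D2:**
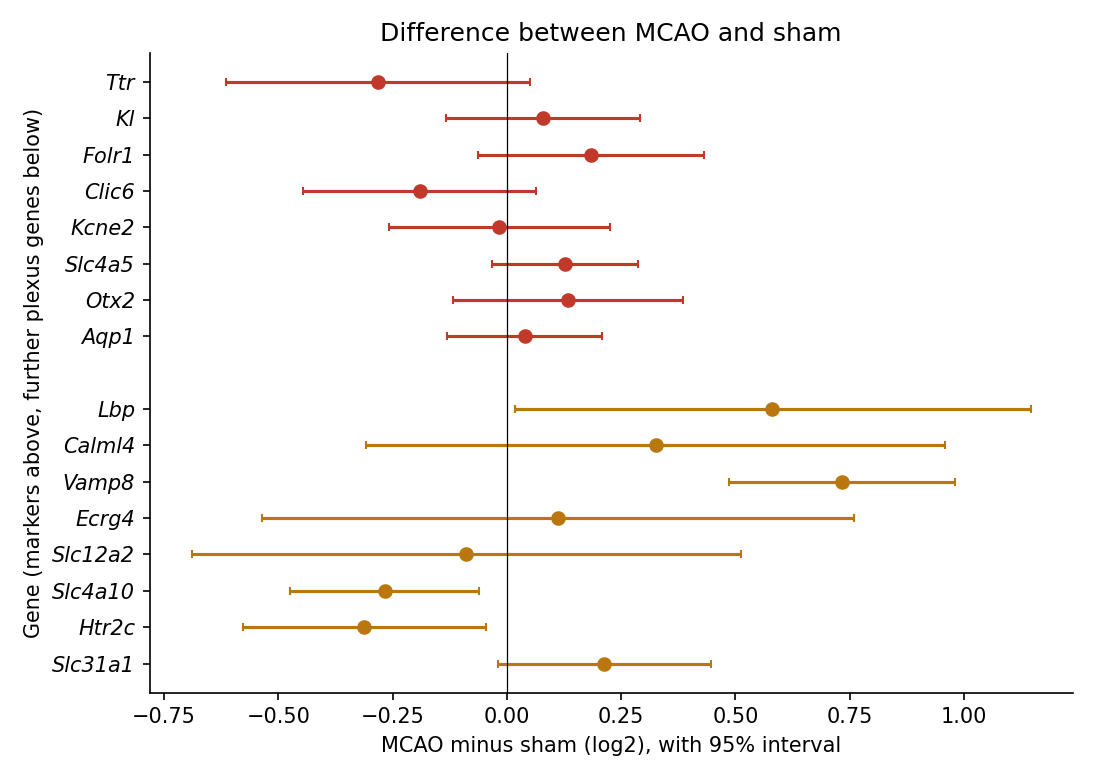
Difference between MCAO and sham (horizontal axis, MCAO minus sham, log2) with its 95% interval from limma, for the 8 choroid plexus markers (red, upper rows) and for 8 further plexus genes (ochre, lower rows). The intervals of all 8 markers include 0, and Vamp8 is the gene that passed the adjusted threshold.

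Across the 6 arrays the markers shared no common order. The array with the highest value was MCAO 2 for 2 markers (Folr1 and Otx2), MCAO 3 for 2 (Kl and Slc4a5), MCAO 1 for 1 (Aqp1), sham 1 for 2 (Ttr and Clic6) and sham 2 for 1 (Kcne2). The lowest value fell on sham 3 for 3 markers, on sham 1 for 2, and on MCAO 1, MCAO 3 and sham 2 for 1 each. The ranges over the arrays ran from 0.14 to 0.62 log2, with a median of 0.36, against a median of 0.32 over all genes and 0.24 over the odour receptor group. None of the 8 had a range above 1 log2, which 2.72% of all genes had. As a level of the whole list, the mean of the 8 log2 values was 6.36, 6.52 and 6.42 on MCAO arrays 1 to 3 and 6.43, 6.47 and 6.37 on sham arrays 1 to 3. The lowest and the highest array thus differed by 0.16 log2, and both were MCAO arrays. In bulk tissue, fewer cells of a type and less RNA per cell cannot be told apart.

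Lists for ependymal cells and oligodendrocytes moved more than the plexus markers between the same arrays, and they also read brighter. The mean level of the ependymal list was 7.73 to 8.55 over the arrays and that of the oligodendrocyte list 9.97 to 10.76. That of the plexus markers was 6.36 to 6.52. The 12 ependymal markers had a median range of 0.91 log2. Spag17, the 1 ependymal marker below the 95th percentile of the odour receptor group, ranged by 0.27 log2. Hydin, the next dimmest at a mean of 6.70, ranged by 0.37 log2. Foxj1, Pifo, Enkur and Mia, with means of 7.51 to 7.90, ranged by 0.68 to 0.97 log2. Ttr and Clic6, with means of 7.41 and 7.95, ranged by 0.62 and 0.42 log2. The part of brightness in these ranges was not tested. Ccdc153, a cilia gene, read 9.28, 10.13 and 9.26 in MCAO and 9.27, 10.21 and 9.13 in sham, so that both arrays numbered 2 stood about 1 log2 above the rest. The same held for 9 of the 12 ependymal markers, whose values on both arrays numbered 2 lay above those of the other 4 arrays, against 9.16% of all genes. Of the 8 plexus markers this was so for 1, Folr1. The mean deviation of the ependymal list from its own 6-array mean was -0.07, 0.46 and -0.09 on the MCAO arrays and -0.25, 0.32 and -0.37 on the sham arrays, a span of 0.82 log2. For the plexus markers the same measure was -0.07, 0.09 and -0.01 on the MCAO arrays and 0.01, 0.04 and -0.06 on the sham arrays. The 11 oligodendrocyte markers measured ran the other way. For 8 of them both arrays numbered 2 lay below the other 4, against 6.87% of all genes, and Mobp, a myelin protein gene, read 12.51, 11.65 and 12.52 in MCAO and 12.46, 11.84 and 12.66 in sham. Cnp, a myelin enzyme, had its lowest values on the same numbers in both groups, 12.41 on MCAO 2 and 12.63 on sham 2, while Mbp, a structural myelin protein, ranged by 0.30 log2. These patterns by sample number were noticed in the data, and the difference in spread between the lists was not tested.

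**Figure D3:**
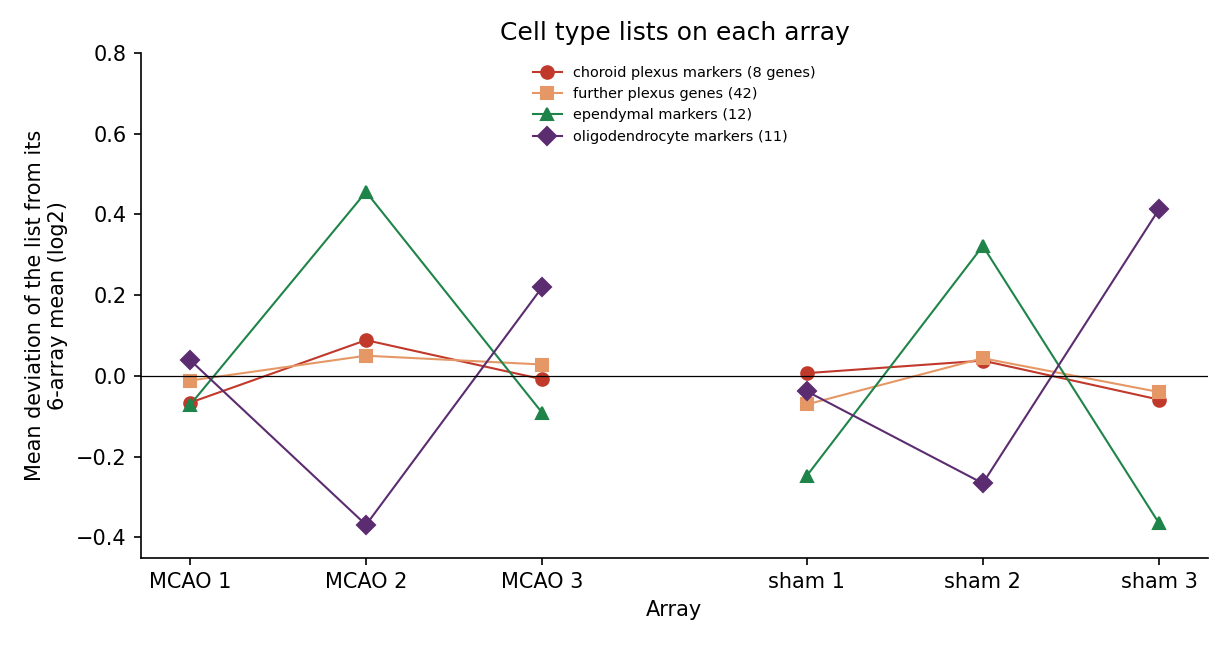
Mean deviation of each list from its own mean over the 6 arrays (vertical axis, log2) on each array (horizontal axis), for the choroid plexus markers, further plexus genes, ependymal markers and oligodendrocyte markers. Lines join the points of a list within a group and imply no order of arrays. The mean of the plexus markers stays within -0.07 to 0.09, while that of the ependymal list spans 0.82. Single plexus markers ranged by up to 0.62 log2.

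Genes most alike in pattern to the plexus list were sought by Pearson's correlation over the 6 arrays with the mean deviation of the 8 markers, among 236 genes with an SD over the arrays of at least 0.5. Dynlrb2 (r = 0.864) and Tmem212 (r = 0.814), both ependymal cilia genes, came first, and stayed between 0.673 and 0.958 whichever single array was left out. Both genes read highest on the arrays numbered 2, of which at least 1 was always kept. Whether the likeness rests on that number was therefore not tested. Their SDs, 0.514 and 0.507, were just above the minimum, and Ccdc153, at 0.486, fell below it. Pisd-ps3, Nnat, Saa3, Cks2, Tppp3, Erdr1, Phpt1 and Pltp followed, at r between 0.724 and 0.494. For 7 of these 8, all but Pisd-ps3, r moved by over 1.5 times without 1 array: without MCAO 2 it was -0.660 for Saa3, 0.1455 for Cks2, 0.398 for Nnat, 0.301 for Tppp3 and 0.264 for Phpt1, and without MCAO 1 it was 0.338 for Erdr1 and 0.2025 for Pltp. The list they were compared with spans 0.16 log2 and the correlation rests on 6 arrays that share number and surgery, so it is given as a description; with dimmer genes left out, where Ttr and Clic6 alone make up the list, it was 0.217 for Dynlrb2 and 0.112 for Tmem212. Among the 8 markers themselves, the 28 pairwise correlations over the arrays had a median of -0.076 and 15 were negative, while the 66 pairs of ependymal markers had a median of 0.83 and 2 negative values.

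A further 44 genes of the plexus epithelium were listed from knowledge of the tissue, and 42 were measured (Prlr and Mfrp were not analysed here). Of the 42, 1 rose, 0 fell and 41 did not pass, against 1.12% of all genes that rose and 0.0165% that fell. With the sample number as a block, 2 rose and 2 fell, against 4.82% and 1.3% of all genes. The median difference was 0.03 log2. The genes were higher in MCAO in 25 cases and lower in 17, and 5 of 42 had groups that did not overlap, against 13.8% of all genes. Of the 42, 29 had a mean above the 95th percentile of the odour receptor group, against 73% of all genes, and 13 had one below it. Kcnj13 and Sostdc1, an inward rectifier potassium channel and a secreted BMP and Wnt antagonist of this epithelium, were among these 13 and were picked as examples after their values were seen. Kcnj13 read 6.02, 6.19 and 6.17 in MCAO and 6.03, 6.10 and 6.19 in sham. Sostdc1 read 6.29, 6.20 and 6.10 in MCAO and 6.16, 6.29 and 6.02 in sham, so neither separated the arrays by group.

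Among the 18 further transporters and channels, 0 passed without the block. Slc12a2, the sodium, potassium and chloride cotransporter that many brain cells also use, ranged by 0.82 log2 and read 9.87, 9.05 and 9.66 in MCAO and 9.86, 9.12 and 9.86 in sham. Both arrays numbered 2 were its lowest, as for the oligodendrocyte list. Slc4a10, a bicarbonate transporter that neurons also express, read 9.54, 9.68 and 9.67 in MCAO and 9.76, 10.01 and 9.91 in sham. Its groups did not overlap, and the difference of -0.27 ± 0.09 (SE) missed the threshold in the unblocked fit (adjusted p = 0.356) and passed when the sample number was a block (adjusted p = 0.0456). A blocked fit of the deposited values missed it again (adjusted p = 0.252). The copper importer gene Slc31a1 differed by 0.21 ± 0.10 (SE; adjusted p = 0.639).

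Of the 3 further receptors and surface enzymes measured, Htr2c, a serotonin receptor of the plexus that neurons also express, read 9.81, 9.64 and 9.44 in MCAO and 10.08, 9.82 and 9.92 in sham. The lowest sham array lay just above the highest MCAO array. Its difference of -0.31 ± 0.11 (SE) missed the threshold in the unblocked fit (adjusted p = 0.431), passed in the blocked one (adjusted p = 0.0415) and missed it in a blocked fit of the deposited values (adjusted p = 0.255). Of 8 striatal neuron markers, 8 read lower in MCAO on average, with a median of -0.20 log2, while 47.7% of all genes read higher. None passed without the block, where 0.0165% of all genes fell, and 2 fell with it (Drd1 and Adcy5), against 1.3% of all genes. The neuropeptide genes Penk and Tac1 and the phosphodiesterase gene Pde10a, the 3 brightest of them, differed by -0.17, -0.20 and -0.24. Their part in the values of Htr2c and Slc4a10 was not tested.

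Secreted proteins of the plexus list held 2 of the 3 widest ranges. Lbp, which binds bacterial lipopolysaccharide and is an acute-phase protein, read 7.90, 8.74 and 8.37 in MCAO and 7.50, 8.19 and 7.58 in sham. It was higher in MCAO within each pair, the groups overlapped because sham 2 lay above MCAO 1, and the difference was 0.58 ± 0.24 (SE). Its adjusted p was 0.5395 in the unblocked fit and 0.00214, past the threshold, in the blocked one. With the mean of its probe sets the difference was 0.37, and without MCAO 2 it was 0.38. Ecrg4, a secreted peptide precursor, read 7.66, 8.45 and 7.63 in MCAO and 7.43, 8.31 and 7.67 in sham, with both arrays numbered 2 highest and a difference of 0.11 ± 0.28 (SE; adjusted p = 0.982).

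Calml4, a calmodulin-like protein, read 6.98, 7.999 and 7.12 in MCAO and 6.82, 7.40 and 6.90 in sham. Its highest arrays were again those numbered 2, and its difference of 0.33 ± 0.27 (SE) did not pass (adjusted p = 0.898, and 0.0636 with the block). The difference was 0.00937 without MCAO 2 and 0.52 without MCAO 1. In Ecrg4 and Calml4, as in the ependymal markers Tmem212 (9.001, 9.82 and 9.16 in MCAO, 8.75, 9.75 and 8.60 in sham) and Rarres2 (9.47, 10.09 and 9.38 in MCAO, 9.06, 9.92 and 9.05 in sham), both arrays numbered 2 were the highest. Ttr did not share this order, since sham 1 and sham 3 were its highest arrays. MCAO 2 was its highest MCAO array, at 7.57, and sham 2 its lowest sham array, at 7.47. Of the 42 further genes, 6 had both arrays numbered 2 above the other 4, against 9.16% of all genes. For 2 of the 42 both lay below the other 4, against 6.87% of all genes.

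**Figure D4:**
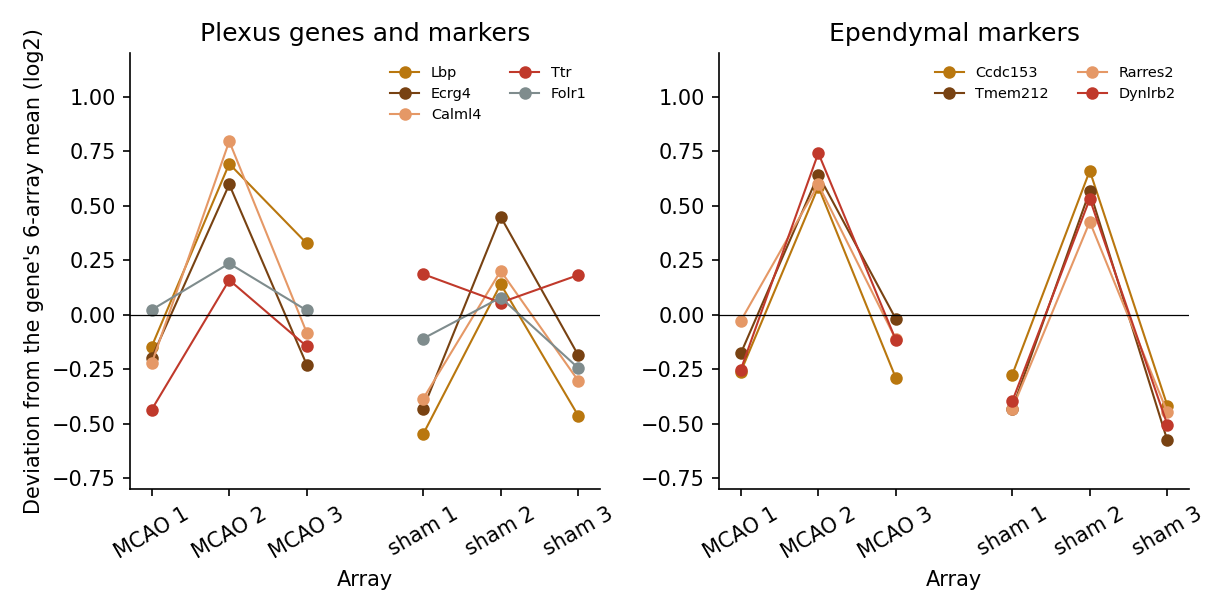
Deviation of single genes from their own 6-array mean (vertical axis, log2) on each array (horizontal axis), for plexus genes and markers on the left and ependymal markers on the right. Lines join the points of a gene within a group and imply no order of arrays; Calml4 and Ecrg4 peak on both arrays numbered 2, as the 4 ependymal markers do, while Ttr does not.

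Vamp8, a vesicle fusion protein of secretory and of immune cells, was the 1 further gene that rose. It read 8.42, 8.31 and 8.14 in MCAO and 7.53, 7.71 and 7.43 in sham, so that every MCAO array lay above every sham array. The difference was 0.73 ± 0.11 log2 (SE, n = 3 each; adjusted p = 0.0218). It lost its call without MCAO 2 (adjusted p = 0.0791), sham 1 (0.0690) or sham 3 (0.124), at differences of 0.72, 0.72 and 0.67. Of 7 markers of the macrophages of brain borders, which include the plexus stroma, 2 rose and 5 did not pass, against 1.12% of all genes that rose; 5 read higher and 2 lower in MCAO. Mrc1, the mannose receptor, rose by 0.96 ± 0.08 (SE; adjusted p = 0.00304) and F13a1, a transglutaminase subunit, by 0.62 ± 0.09 (SE; adjusted p = 0.0173), while the differences of Pf4 (0.34, adjusted p = 0.3965), Ms4a7 (0.25, adjusted p = 0.650) and Cbr2 (0.14, adjusted p = 0.876) missed the threshold. The 2 that read lower were the scavenger receptor gene Cd163, by a difference of -0.13 without overlap of the groups (adjusted p = 0.765), and the hyaluronan receptor gene Lyve1, by -0.02 (adjusted p = 0.988). The part of macrophages in the value of Vamp8 was not tested.

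Markers of the stroma and fenestrated vessels of plexus and meninges, the tissue under the epithelium, were read as well. Of the 9, 0 passed with or without the block, against 6.12% and 1.13% of all genes. Their ranges ran from 0.13 to 0.63 log2, and the median difference was 0.07. The groups did not overlap for 3 of the 9, against 13.8% of all genes, and all 3 read higher in MCAO: the fibrillar collagen genes Col1a2, by 0.32, and Col3a1, by 0.23, and Dcn, by 0.19. Plvap, the diaphragm protein of fenestrated vessels, read 7.10, 7.14 and 7.40 in MCAO and 6.995, 7.22 and 7.21 in sham. Dcn, a proteoglycan of fibroblasts, read 7.21, 7.22 and 7.45 in MCAO and 7.03, 7.14 and 7.13 in sham, without overlap and without passing (adjusted p = 0.633). Igf2, made by stroma and meninges, read 7.44, 7.38 and 7.62 in MCAO and 7.37, 7.60 and 7.71 in sham.

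Other lists were set against the same mark, the 95th percentile of the odour receptor group, which 73% of all genes exceeded. All 7 measured markers of subventricular zone progenitors and neuroblasts and all 8 of striatal projection neurons had means above it. So did 11 of 12 ependymal and 11 of 11 oligodendrocyte markers. Striatal markers passed as well, so these counts do not tell the zone from striatum. Dcx, the microtubule protein of migrating neuroblasts, read 8.998, 9.31 and 9.08 in MCAO and 9.07, 9.08 and 8.87 in sham. Sox2 and Sox11, transcription factors of progenitors and neuroblasts, averaged 9.79 and 10.99 in MCAO, and 9.62 and 10.84 in sham. Of the 8 markers of plexus epithelium, 3 had means above that percentile.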

How the data were processed

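The authors deposited 1 log2 value per probe set and array; how they corrected background, summarised probes and normalized is not given in the sources used, and a transform that compresses low values would narrow differences between dim probe sets. Of 45101 probe sets, 34958 had 1 gene symbol in the array's annotation table, 932 several and 9211 none. Because the upper quantiles of the deposited values differed between arrays (90th percentiles 8.85 to 9.06), quantile normalization was added; the deposited values were an alternative. Where a gene had several probe sets, the one with the highest mean over the arrays stood for it, giving 18194 genes. The test of MCAO against sham was that of limma 3.58.1 (R 4.3.3; functions lmFit and eBayes, 2-sided, Benjamini-Hochberg over all genes, threshold 0.05), after a test on simulated data. A permutation test of 3 against 3 cannot go below an exact p of 0.1. The number of arrays limits the precision.

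The markers and gene lists were chosen with earlier results of these data known. Genes named are the 9 markers; of the further plexus genes the 5 of largest SD, the 5 of smallest p and any past the threshold with or without the block; the 10 most alike in pattern, with an SD of at least 0.5 (predicted genes would be left out and numbered 0); and the 3 brightest genes of each other list. Others named were chosen after their values were seen. The sample numbers are shared between groups, and across genes the deviations of same-numbered arrays from their group means correlated at 0.77, 0.44 and 0.48 for numbers 1, 2 and 3, so the number was taken as a pair in a blocked alternative. Fits of single probe sets were added after the data were seen.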

Additional observations from a re-analysis of the deposited data

How the results depend on the processing

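Of 106 differences of the 8 markers recomputed under other settings, 104 kept their direction, 0 passed the threshold, and 2, both of Kcne2, reversed (0.0345 without MCAO 2 and 0.0663 without sham 2, within a range of -0.0862 to 0.0663 over single arrays left out). The median difference of the markers was -0.236 with dimmer genes left out, where by construction only Ttr and Clic6 remained, and 0.0301 to 0.0818 with single arrays left out. The largest range among the markers was 0.479 to 0.622 with single arrays left out. Over all genes, 1113 passed with the sample number as a replicate block (877 rose, 236 fell) and 816 in a blocked fit of the deposited values (765 and 51), against 206 without; leaving out single arrays gave 44 to 209, namely 98 without MCAO 3, 125 without sham 1, 132 without sham 2 and 44 without sham 3. Of the further plexus genes 4 passed with the block, 2 in the blocked fit of the deposited values, and 0 to 1 with single arrays left out. The block changed no call among the 8 markers. Among genes named outside the markers, 346 of 373 recomputed differences kept direction and call. Those whose direction turned without some single array ranged over such fits from -0.158 to 0.365 for Ecrg4, -0.335 to 0.150 for Slc12a2, -0.266 to 0.358 for Ccdc153, -0.352 to 0.0479 for Cnp, -0.332 to 0.197 for Mobp, -0.0247 to 0.126 for Plvap and -0.0960 to 0.333 for Sox11. The cause of these changes was not tested. In the blocked fit Rarres2 also passed (adjusted p = 0.0364) but missed the threshold in the blocked fit of the deposited values (0.0516), where Tmem212 passed (0.0487). Without MCAO 2 their unblocked differences were 0.0804 and 0.0485.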
